A study of Mus musculus with 4 samples.

Results

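Giant and M-band sarcomere proteins are the filaments and crosslinkers that hold the contractile lattice of striated muscle in register. The genes described here were taken by symbol and comprised Ttn and Neb, which encode the giant proteins titin and nebulin, the M-band genes Obsl1, Myom1, Myom2 and Myom3, and the myosin-binding protein genes Mybpc1, Mybpc2 and Mybph. All 9 were found, each as 1 entry, among 24320 gene symbols in the total RNA tables and 24438 in the polyA tables. C2C12, a mouse myoblast line that fuses into multinucleated myotubes when serum is reduced, was sampled in 4 libraries, 1 per condition. Total RNA depleted of rRNA was sequenced from myoblasts (MB, labelled DM -24 h, before the switch to differentiation medium, DM) and from myotubes (MT, DM 72 h). PolyA RNA was sequenced at DM 48 h from cells transfected with siRNA against hnRNPL, an RNA-binding protein (si-hnRNPL), or with control siRNA (si-NC). The cell type field of the labels reads myoblasts for all 4 libraries, so MB and MT are told apart by title and culture conditions. The study itself was about enhancer RNAs in myoblast differentiation and their binding of hnRNPL.

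Titin spans from the Z-disc to the M-band and acts as a molecular spring, while nebulin runs along the thin filament. At the M-band, myomesins crosslink thick filaments and bind titin, and the Obsl1 protein links myomesin to titin. Myosin-binding protein C isoforms and the related myosin-binding protein H decorate thick filaments: Mybpc1 encodes the slow skeletal form and Mybpc2 the fast one. These proteins are made as myoblasts withdraw from the cell cycle and fuse, under factors such as MyoD, myogenin and MEF2.

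With 1 library per condition, no difference below has a replicate check and no test between conditions was possible. Values are FPKM (fragments per kilobase of transcript and per 1e6 mapped fragments), which puts genes of unequal length on a per-length scale. Each is given with the 95% interval deposited beside it, which covers errors of counting and of assigning fragments inside that library, and nothing beyond it. The interval widths imply 59960176 fragments in MB, 54442423 in MT, 21341051 in si-NC and 14592480 in si-hnRNPL. Among entries with low implied numbers, 91.4% were near whole in MB and 91.1% in MT, against 41.8% in si-NC and 39.9% in si-hnRNPL. The polyA numbers are therefore effective sizes set by the intervals and not plain counts of fragments. Changes are log2((FPKM + 1) ratio), and an entry was counted as higher or lower at 0.58 or more, a scale on which low FPKM values give changes that are too small. All 7 markers of differentiated myotubes were higher in MT than in MB, and their summed FPKM was 16.3 in MB and 1530 in MT. Of 7 markers of undifferentiated or cycling myoblasts, 5 were lower in MT, with summed FPKM of 637 in MB and 211 in MT. Heart muscle markers summed to 3.31 FPKM or less in every library, with 0.223 in MB and 3.31 in MT. Of these 4 markers, Tnni3 (0.145 to 2.54 FPKM) and Myh6 (0.00309 to 0.705) were higher in MT. Fat cell markers summed to 0.251 FPKM or less, with the fat droplet gene Plin1 at 0 throughout. A lower level in a culture can reflect fewer cells of a type or less RNA per cell, which cannot be told apart in bulk RNA.

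RefSeq promoter windows, from 250 bases before to 50 bases after the annotated start (GRCm38.p6), were matched for 7 of the 9 genes, with no entry for Neb and Myom2. The windows shown are those of the gene with the largest rise in MT (Mybph), the longest gene (Ttn), an M-band gene (Myom1) and the member with the smallest change (Obsl1). They are printed 5′ to 3′ along the gene's strand, and capitals mark matches to the motifs searched on both strands. Those motifs were the E-box CANNTG, its subset CAGCTG, the MEF2 box, the CArG box bound by serum response factor, and the TATA motif TATAAA. Mybph lies at chr1:134193198-134193497 on the plus strand, Ttn at chr2:76982498-76982797 on the minus strand, Myom1 at chr17:71019307-71019606 on the plus strand and Obsl1 at chr1:75506403-75506702 on the minus strand.
Mybph: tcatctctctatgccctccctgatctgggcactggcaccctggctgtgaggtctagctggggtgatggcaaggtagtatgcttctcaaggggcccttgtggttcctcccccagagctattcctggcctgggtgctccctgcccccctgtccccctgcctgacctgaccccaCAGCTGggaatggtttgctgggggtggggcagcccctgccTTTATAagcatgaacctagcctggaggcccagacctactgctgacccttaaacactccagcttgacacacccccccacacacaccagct
Ttn: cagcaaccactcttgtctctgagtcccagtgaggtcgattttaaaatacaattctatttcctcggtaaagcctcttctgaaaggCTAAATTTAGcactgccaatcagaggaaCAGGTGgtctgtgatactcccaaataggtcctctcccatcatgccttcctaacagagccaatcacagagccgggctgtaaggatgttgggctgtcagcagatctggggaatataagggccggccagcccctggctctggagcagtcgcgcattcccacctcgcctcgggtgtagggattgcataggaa
Myom1: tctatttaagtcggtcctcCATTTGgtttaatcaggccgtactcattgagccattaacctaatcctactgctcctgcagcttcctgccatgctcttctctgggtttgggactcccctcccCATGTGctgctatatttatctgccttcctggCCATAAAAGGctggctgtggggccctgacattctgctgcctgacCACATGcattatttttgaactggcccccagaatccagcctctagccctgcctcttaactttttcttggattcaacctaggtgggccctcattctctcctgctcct
Obsl1: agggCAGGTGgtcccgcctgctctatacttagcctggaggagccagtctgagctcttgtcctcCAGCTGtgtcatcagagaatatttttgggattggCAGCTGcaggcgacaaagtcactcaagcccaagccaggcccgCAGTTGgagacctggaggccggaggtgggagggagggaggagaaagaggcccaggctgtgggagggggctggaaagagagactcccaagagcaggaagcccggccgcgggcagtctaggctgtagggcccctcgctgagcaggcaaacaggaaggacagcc

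The Mybph window holds a CAGCTG 79 bases before the start and, 39 bases before it, a TATAAA read on the opposite strand. The Ttn window holds a MEF2 box 166 bases before the start and a single CANNTG 138 bases before it. In the Myom1 window a CArG box lies 99 bases before the start, among 3 CANNTG. Obsl1 carries 4 CANNTG, of which 2 are CAGCTG. Over the 7 member windows, CANNTG was found in 7, against 72.3% of 32851 mouse promoter windows, and CAGCTG in 3, against 16.3%. A MEF2 box was found in 2 (Ttn and Myom3), against 3.19% of all windows, a CArG box in 1, against 1.63%, and TATAAA in 1, against 13.6%. A match describes letters in these windows and no binding was measured here.

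All 9 genes were higher in MT than in MB, and of the 11799 named entries that reached 1 FPKM in either library, 15.4% were higher and 28.6% were lower. Of the members, 7 reached 1 FPKM in MT alone and so entered that background through their MT level, since Obsl1 was above 1 in both libraries and Mybpc1 in neither. The median change over the 9 members was 3.81, against a median of -0.20 over the named entries. On this scale 6 members rose by 2.79 or more, and Obsl1, Mybpc1 and Mybpc2 by 1.06 or less. For the Mybpc genes that depends on the pseudocount: with 0.01 in place of 1, Mybpc1 was at 6.13 and Mybpc2 at 6.78, beside 6.92 for Ttn, and Obsl1 stayed at 0.73. Together the 9 members held 0.00855% of the implied fragments of MB and 0.736% of those of MT, and Ttn alone held 0.505% in MT.

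**Figure D1:**
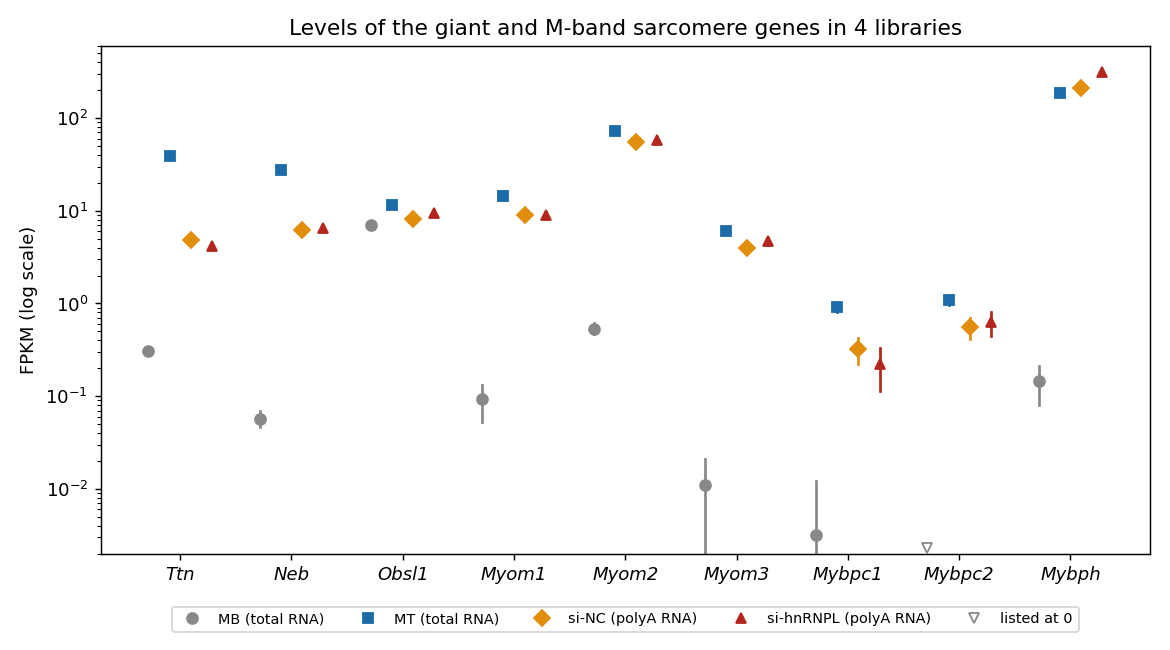
FPKM (log scale) of each of the 9 genes in MB, MT, si-NC and si-hnRNPL, with the deposited 95% interval as a vertical line and an open triangle where a gene is listed at 0. Obsl1 is the only member above 1 FPKM in MB (6.95), while Mybph is the highest member in the other 3 libraries.

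The Ttn locus is the longest among the members (mm9 chr2:76542041-76820604), and its longest annotated transcript has 106824 bases in 347 exons. Ttn was at 0.310 FPKM (0.294 to 0.326) in MB and 38.8 (38.7 to 39.0) in MT. It rose by 4.93 (4.91 to 4.94), a plain ratio of 125 (119 to 132), and 34 of the 11799 entries had a larger rise. Because of its length the low MB level still rested on 1532 implied fragments, against 275035 in MT. The titin transcript was thus measured in MB with a narrow interval, far below its level in MT.

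Neb (chr2:51992167-52194318), with a longest transcript of 22489 bases, was at 0.0573 FPKM (0.0462 to 0.0684) in MB and 27.7 (27.4 to 27.9) in MT. Its change of 4.76 (4.74 to 4.78) was close to that of Ttn on the log2((FPKM + 1) ratio) scale. As a plain ratio Neb rose 483-fold (404 to 599), above the interval of the Ttn ratio. The order of the giant genes therefore differed between these scales: Neb was lower than Ttn in both libraries, and as a ratio the gap was wider in MB.

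The 3 myomesin genes rose together at separate levels. Myom2 (chr8:15057653-15133419), the myomesin of fast fibres, was at 0.536 FPKM (0.463 to 0.610) in MB and 72.4 (71.5 to 73.2) in MT, a change of 5.58 (5.51 to 5.65) and a plain ratio of 135 (119 to 156). Myom1 (chr17:71368897-71476196), the myomesin found across striated muscle, was at 0.0921 FPKM (0.0527 to 0.131) and 14.3 (13.9 to 14.7), a change of 3.81 (3.75 to 3.87). For Myom3 (chr4:135315630-135371482), the myomesin of intermediate fibre types, the values were 0.0111 FPKM (0.00118 to 0.0211) and 5.98 (5.75 to 6.20), a change of 2.79 (2.74 to 2.84). In MT their intervals did not overlap, with Myom2 highest and Myom3 lowest. The plain ratio was 155 (109 to 271) for Myom1 and 537 (283 to 5087) for Myom3, whose MB value rested on 5.00 implied fragments. The plain ratios of Myom1 and Myom2 overlapped, while their intervals on the log2((FPKM + 1) ratio) scale did not.

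Obsl1 (chr1:75482400-75503027), which also has roles outside muscle in a cullin ubiquitin ligase complex, differed from the rest in MB. It was at 6.95 FPKM (6.70 to 7.19) in MB and 11.5 (11.2 to 11.8) in MT. The rise was 0.65 (0.60 to 0.71), a plain ratio of 1.66 (1.59 to 1.73), and 13.6% of the named entries rose more. In MB it made up 85.7% of the summed FPKM of the 9 members, and in MT it was sixth in order, below Myom1. This member passed the fold by a small margin.

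The myosin-binding protein genes held both the highest and the lowest members in MT. Mybph (chr1:136090025-136097809), the shortest member with a transcript of 1828 bases, was at 0.145 FPKM (0.0799 to 0.209) in MB and 185 (183 to 187) in MT. Its change of 7.34 (7.26 to 7.43) was exceeded by 1 named entry, and the plain ratio of 1280 (884 to 2316) rested on 26837 implied fragments in MT and far fewer in MB. Mybph was the highest member in MT and held 51.7% of the members' summed FPKM there.

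The skeletal isoforms of myosin-binding protein C stayed low. Mybpc2 (chr7:51757069-51780039) was listed at 0 in MB and at 1.09 FPKM (0.9704 to 1.21) in MT, a change of 1.06 (0.98 to 1.14) whose interval holds no error for MB and for which no plain ratio is given. Mybpc1 (chr10:87981024-88067897) was at 0.00321 FPKM (0 to 0.0123) in MB, on 0.502 implied fragments, and at 0.915 (0.806 to 1.02) in MT, a change of 0.93 (0.85 to 1.01). In MT the intervals of these genes overlapped each other and lay below those of the other 7 members. The partner gene Mybpc3, the cardiac isoform, was at 0.0116 FPKM or less in every library.

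In order of level per length, MT ran Mybph, Myom2, Ttn, Neb, Myom1, Obsl1, Myom3, Mybpc2 and Mybpc1, and only the last pair had overlapping intervals. In MB the order ran Obsl1, Myom2, Ttn, Mybph, Myom1, Neb, Myom3, Mybpc1 and Mybpc2. There Mybph, Myom1 and Neb overlapped neighbour by neighbour, as did Myom3, Mybpc1 and Mybpc2. In both polyA libraries Mybph and Myom2 again led, and Mybpc2 and Mybpc1 came last. Between them, si-NC ran Myom1, Obsl1, Neb, Ttn and Myom3, with overlap between Myom1 and Obsl1. In si-hnRNPL the order was Obsl1, Myom1, Neb, Myom3 and Ttn, with overlap between Obsl1 and Myom1 and between Myom3 and Ttn.

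In the siRNA pair, the targeted gene Hnrnpl stood at 95.1 FPKM (92.7 to 97.5) in si-NC and at 85.9 (83.1 to 88.7) with si-hnRNPL. That difference of -0.14 (-0.20 to -0.09) did not pass the fold, although the library intervals did not overlap. At the RNA level these libraries thus show little loss of the target, and the values below compare the libraries as labelled. The paper assessed its hnRNPL knockdown on protein, by Western blot, which RNA libraries do not measure. Of the 9 members, 1 was higher in si-hnRNPL and 0 were lower. Of 11369 named entries that reached 1 FPKM in either polyA library, 1.44% were higher and 0.888% were lower. The members' median was 0.06, with 6 above 0 and 3 below, and the median over all named entries was -0.01.

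Mybph was the member past the fold. Its level was 209 FPKM (199 to 218) in the si-NC library and 315 (300.3 to 329) with si-hnRNPL, and these intervals did not overlap. The change was 0.59 (0.50 to 0.68), a plain ratio of 1.51 (1.41 to 1.61), and its interval reached below 0.58. Among 717 named entries at 100 FPKM or more in si-NC and in si-hnRNPL, 11 rose at least as much, Mybph included, 2 were lower by the fold, and the median was 0.13.

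The giants and M-band genes stayed within the fold, with values on both sides of 0. Ttn was at 4.81 FPKM (4.62 to 5.00) in si-NC against 4.20 (4.02 to 4.38) in si-hnRNPL, a difference of -0.16 (-0.23 to -0.09), and 20.8% of named entries had a lower value. Neb was at 6.21 (5.90 to 6.52) and 6.52 (6.17 to 6.87), a difference of 0.06 (-0.03 to 0.15). For Ttn the library intervals were apart, and for Neb they overlapped.

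Among M-band genes, Obsl1 was at 8.09 FPKM (7.56 to 8.62) in si-NC against 9.55 (8.83 to 10.3) in si-hnRNPL, a difference of 0.21 (0.08 to 0.34). Myom1 was at 8.97 (8.39 to 9.55) and 8.94 (8.27 to 9.60), a difference of -0.01 (-0.13 to 0.12). Those genes lay side by side in both libraries, with overlapping intervals. Myom2 was at 54.5 FPKM (53.4 to 55.7) and 57.6 (56.1 to 59.0), a difference of 0.08 (0.03 to 0.12). Myom3 was at 3.996 (3.70 to 4.29) and 4.70 (4.31 to 5.10), a difference of 0.19 (0.06 to 0.32). The library intervals of Obsl1, Myom2 and Myom3 were apart by small margins.

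Mybpc2 was at 0.553 FPKM (0.416 to 0.691) in si-NC against 0.625 (0.446 to 0.804) in si-hnRNPL, a difference of 0.06 (-0.14 to 0.27). Mybpc1 was at 0.326 (0.223 to 0.429) and 0.222 (0.115 to 0.330), a difference of -0.12 (-0.29 to 0.05). Mybpc2 rested on 64.5 and 48.7 implied fragments and Mybpc1 on 40.3 and 17.1. For both genes the library intervals overlapped and a difference was not detectable. The Mybpc1 value was -0.40 with a pseudocount of 0.1 and -0.53 with 0.01.

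**Figure D2:**
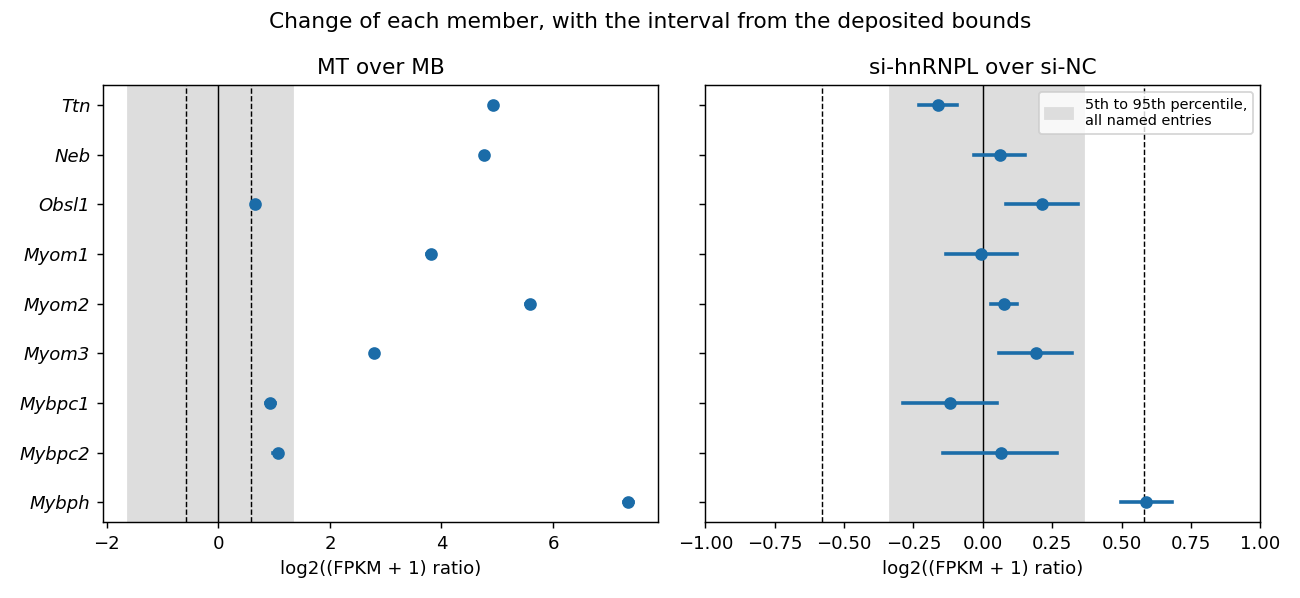
Change of each member as log2((FPKM + 1) ratio), MT over MB at left and si-hnRNPL over si-NC at right. Points are the changes, horizontal lines their intervals from the deposited bounds, dashed lines mark 0.58 in either direction and the grey band spans the 5th to the 95th percentile of named entries. All members lie right of the upper dashed line at left, and at right Mybph alone reaches it (0.59).

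Marker lists of the differentiated and undifferentiated state also differed in value between the polyA libraries. Of the 7 myotube markers, 7 had values above 0 in si-hnRNPL over si-NC and 2 passed the fold (Ckm and Acta1), with a median of 0.43. Their summed FPKM was 1971 in si-NC against 2838 in si-hnRNPL. Of the 7 myoblast and cycling markers, Mki67 and Top2a were lower, Id3 was higher, and the median was -0.31. Smooth muscle markers, which myoblasts also express, summed to 656 FPKM in si-NC against 909 in si-hnRNPL, with none of 4 past the fold. Heart muscle markers summed to 0.804 and 0.483 FPKM, with Nppa and Myl7 at 0 in both. The part of these marker differences in the Mybph value was not tested.

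The total RNA and polyA tables were normalized separately, and the libraries differ in time in DM, transfection and library kit, which cannot be told apart here. Apart from the likeness of profiles described further below, levels were therefore set side by side only as a percent of Myom2 in the same library. Ttn was at 53.7% of Myom2 in MT, 8.83% in si-NC and 7.30% in si-hnRNPL. Neb was at 38.2% in MT, 11.4% in si-NC and 11.3% in si-hnRNPL. Both giants thus stood higher relative to Myom2 in the rRNA-depleted MT library than in either polyA library. Myom1 was at 19.8%, 16.5% and 15.5% in the same order of libraries, Obsl1 at 15.9%, 14.8% and 16.6%, and Myom3 at 8.26%, 7.33% and 8.17%. These M-band genes kept a narrow range across the 3 libraries. Mybpc2 was at 1.51%, 1.02% and 1.09%. Mybpc1 was at 1.26%, 0.598% and 0.386%. Its polyA levels were low, resting on 40.3 (si-NC) and 17.1 (si-hnRNPL) implied fragments. Mybph, at 256% of Myom2 in MT, stood higher in the polyA libraries, at 383% in si-NC and 546% in si-hnRNPL. A link of these percentages with transcript length was not tested.

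**Figure D3:**
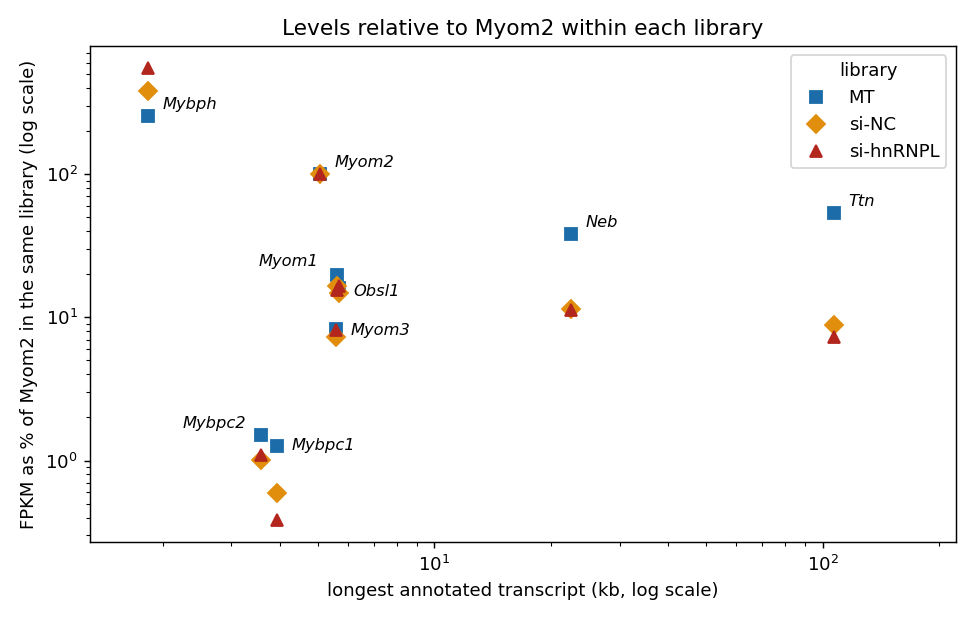
FPKM of each member as a percent of Myom2 in the same library (log scale) against the length of its longest annotated transcript in kb (log scale), for MT, si-NC and si-hnRNPL. Ttn at 106.8 kb is at 53.7% in MT and at 8.83% and 7.30% in the polyA libraries. Myom1, Obsl1 and Myom3, near 5 to 6 kb, each keep a narrow range across the libraries, at levels apart from Myom2. Mybpc1 at 3.92 kb is at 1.26%, 0.598% and 0.386%, with few implied fragments behind its polyA values.

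Changes in the polyA pair also moved with exon length over the whole table. Over 10918 named entries that reached 1 FPKM in each polyA library, the change had a Spearman correlation of -0.41 with annotated exon length, and over the 9 members it was -0.37. The entries share the 2 libraries, so this is a description across genes and not across samples. The shortest of 20 bins had a median of 0.19 and the longest, from 9932 bases, a median of -0.14. Set against the median of their own bins, Ttn was at -0.02, Neb at 0.20, Myom1 at 0.05, Myom2 at 0.20, Myom3 at 0.26 and Obsl1 at 0.34. Mybph was then at 0.52 and no longer past the fold. In MT over MB the correlation was 0.14 over 10570 named entries at 1 FPKM or more in each library. It was 0.15 over the members, and all 9 stayed past the fold relative to their bins. Obsl1 alone of the members reached 1 FPKM in MB, so those bins hold none of the other members.

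**Figure D4:**
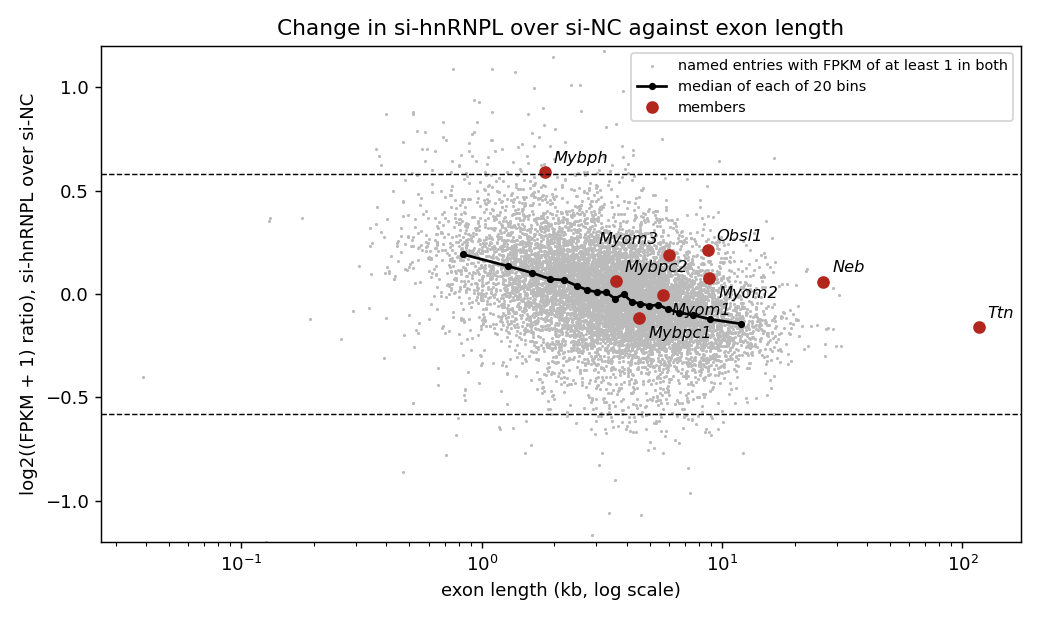
Change in si-hnRNPL over si-NC, as log2((FPKM + 1) ratio), against annotated exon length in kb (log scale). Grey points are named entries that reached 1 FPKM in each library (5 of 10918 lie beyond the axis), black points the medians of 20 bins of equal size, red points the 9 members and dashed lines 0.58 in either direction; the medians run from 0.19 in the shortest bin to -0.14 in the longest, and Mybph (0.59) lies on the upper dashed line.

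Genes whose products bind or resemble the members were described from a list of 24 partners. In MT over MB, 17 were higher and 1 was lower, with a median of 2.45. The largest rises were those of Ckm, the muscle creatine kinase that docks at the M-band (0.00961 to 66.3 FPKM, a change of 6.06), and of Klhl41, a muscle kelch protein (0.721 to 66.9, a change of 5.30). Next were Ankrd2, a stretch-responsive ankyrin repeat protein that binds titin (0.0513 to 36.1, a change of 5.14), and Lmod3, the leiomodin of thin filaments (0.0985 to 32.9, a change of 4.95). Fhl1, a LIM domain protein of muscle, was the lower partner, at 149 FPKM in MB and 79.9 in MT, a change of -0.89. Mybphl, the paralog of Mybph, was listed at 0 in all 4 libraries.

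In si-hnRNPL over si-NC, 2 of the 24 partners were higher and 0 were lower, with a median of 0.23. Ankrd2 was at 36.01 FPKM in si-NC against 77.6 in si-hnRNPL, a change of 1.09 (0.97 to 1.201). Ckm was at 45.0 and 74.3, a change of 0.71 (0.59 to 0.84). The Ankrd2 interval lay above that of Mybph, and the Ckm interval overlapped it.

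Other sarcomere lists were measured in the same way. Of 8 troponin genes, the calcium switch of the thin filament, 8 were higher in MT with a median of 6.32, and 2 were higher in si-hnRNPL with a median of 0.51. Of 10 sarcomeric myosin heavy chains, 7 were higher in MT with a median of 1.81, and 0 passed the fold in si-hnRNPL over si-NC, with a median of -0.0017. Of 13 Z-disc genes, 9 were higher in MT with a median of 1.62, and 2 were higher in si-hnRNPL with a median of 0.23. The order of these lists in MT depends on the pseudocount. With 0.01 in place of 1 the median was 7.30 for the myosin heavy chains (9 higher and 1 lower), 7.07 for the troponins, 7.05 for the members, 4.75 for the partners and 3.89 for the Z-disc genes (12 higher). With 1 library per condition, differences between lists were not tested. Exon length bin medians were subtracted for the members only. The trend with exon length in the polyA pair was thus not taken out of the list, partner and marker values.

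**Figure D5:**
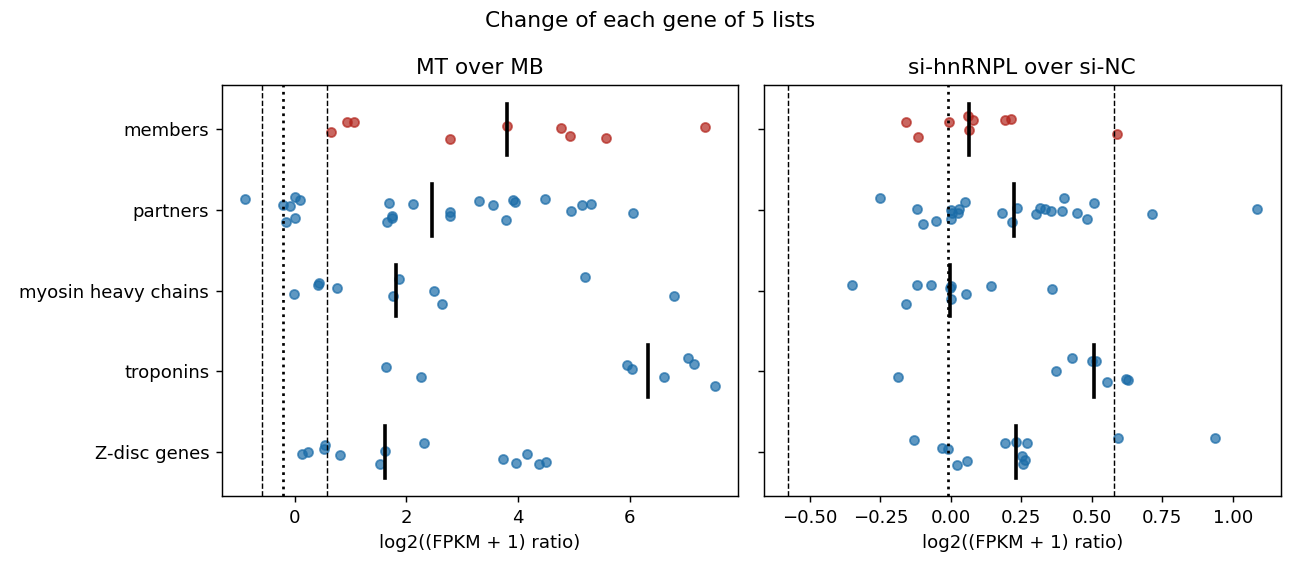
Change of each gene, as log2((FPKM + 1) ratio), in 5 lists, MT over MB at left and si-hnRNPL over si-NC at right. Points are genes with a random vertical offset, black bars list medians, the dotted line the median of all named entries and dashed lines 0.58 in either direction; the members' bar is at 3.81 at left and 0.06 at right, and the troponins' at 6.32 and 0.51.

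The flanking genes of the members were mostly low or little changed. Of 18 nearest protein-coding neighbours, 4 were higher in MT and 0 were lower, and the median change was 0.0055. Of the 18, 9 were below 1 FPKM in both total RNA libraries. Over named entries that reached 1 FPKM in either library, 15.4% were higher and 28.6% were lower, a filter not applied to the neighbours. Ccdc141, 27358 bases from Ttn, was at 0.773 FPKM in MB and 33.5 in MT, a change of 4.28, and at -0.28 in si-hnRNPL over si-NC. Myog, the gene of myogenin, lies 88771 bases from Mybph and was at 0.695 FPKM in MB and 251 in MT, a change of 7.21. In the polyA pair Myog was at 175 FPKM in si-NC against 249 in si-hnRNPL, a change of 0.51 (0.46 to 0.56) beside the 0.59 of Mybph. The other neighbours past the fold were Chpt1 beside Mybpc1 (17.7 to 30.0 FPKM, a change of 0.72) and Chil1 beside Mybph (0 to 0.670, a change of 0.74). Adora1 overlaps the Mybph locus, and it was listed at 0 in MB, at 1.48 in MT, at 8.03 in si-NC and at 12.3 in si-hnRNPL. Whether counting used strand is not given in the sources used here, so reads of these overlapping genes are uncertain.

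The genes most like the members were sought over the 4 libraries among 10414 protein-coding entries. Each profile of log2(FPKM + 1) was centred on its own mean and compared with the median profile of the 9 members by root-mean-square difference. Among the 3 nearest were Klhl40 (0.0982), a muscle kelch protein on the partner list, and Trim63 (0.179), a muscle ubiquitin ligase that binds titin and is also on the partner list. Klhl40 was at 0.131 FPKM in MB, 14.5 in MT, 6.63 in si-NC and 7.85 in si-hnRNPL. The 4 points share 2 library types, whose FPKM values were put together here without scaling to Myom2, and the likeness is a description.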

How the data were processed

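The data comprised 4 libraries, 1 per condition: rRNA-depleted RNA for MB and MT, polyA RNA for si-NC and si-hnRNPL. The authors kept reads of 36 bases or more, aligned them with TopHat (v2.0.13) to the mouse genome build mm9, and deposited FPKM estimates from Cufflinks (v2.1.1), each with a 95% interval. The strand setting of counting is not given in the sources used here. From FPKM and bounds, log2((FPKM + 1) ratio) was computed in each pair, with an interval that adds in quadrature, on the log2 scale, the distances from each value to its bound. Effective fragments implied by the interval widths were stated with the results, and in the polyA libraries they are not plain fragment counts. No count test was run on them. Background shares used named entries that reached 1 FPKM in either library. Loci are the files' own on mm9. Exon lengths came from GENCODE vM1 on the same build and promoter windows from RefSeq on GRCm38.p6.

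The 9 members were taken by symbol. Named besides were the 4 partners with the largest rise in MT, partners past the fold otherwise, neighbours past the fold in MT, the 3 genes most like the median profile, and Hnrnpl. Some genes that this rule selects are left unreported. Genes outside that rule (markers, Mybpc3, Mybphl and Adora1) were named after their values were seen. The members and lists were chosen with earlier results of these data known. Alternatives were pseudocounts of 0.1 and 0.01, a log2 fold of 1, other FPKM filters, centring, subtraction of exon length bin medians and summing of entries. Calculations ran in Python (3.11.15) with pandas (2.3.3), numpy (2.4.6) and scipy (1.17.1), figures were drawn with matplotlib (3.10.9), and the calculations were tested on simulated data.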

Additional observations from a re-analysis of the deposited data

How the results depend on the processing

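All 9 members remained higher in MT with pseudocounts of 0.1 and 0.01, after centring, with exon length bin medians subtracted and with entries summed, and 7 did at a log2 fold of 1. The median of 3.81 became 6.23 and 7.05 with pseudocounts of 0.1 and 0.01, 4.03 after centring on the median of named entries (a shift of 0.23) and 3.96 with exon length bin medians subtracted. In si-hnRNPL over si-NC the 1 higher member became 0 at a log2 fold of 1 and 0 with exon length bin medians subtracted, and no member was lower in any setting. The background in MT was 7.88% higher and 13.3% lower at a log2 fold of 1, and 7.81% and 13.7% without the FPKM filter. For si-hnRNPL over si-NC those shares were 0.334% and 0.150%, and 0.688% and 0.416%. Summing entries changed no member, since each has 1. No value past the fold changed sign, and in si-hnRNPL over si-NC Myom1 went from -0.01 to 0.05 with bin medians subtracted, and Mybpc1 from -0.12 to -0.40 and -0.53 with pseudocounts of 0.1 and 0.01. For the other lists, the 2 partners higher in si-hnRNPL became 4 with a pseudocount of 0.01 and 1 at a log2 fold of 1, where the 2 higher troponins and the 2 higher Z-disc genes became 0, and the 1 lower partner in MT became 2 and 0. With a pseudocount of 0.01, 1 gene each of the partners, myosin heavy chains, troponins and Z-disc genes was lower in si-hnRNPL, against 0. The MT medians of the myosin heavy chains and Z-disc genes were 4.69 and 2.55 with a pseudocount of 0.1, with 9 and 12 genes higher. No replicate could be left out with 1 library per condition, and no paired analysis was possible because each group holds 1 library. In MB, Mybpc1 and Myom3 rest on 0.502 and 5.00 implied fragments, so their plain ratios are poorly bounded.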

Other observations

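The total RNA tables also list transcript units assembled from the reads, and 15 of them lie within member loci (9 in Ttn, 4 in Neb, 1 in Myom2 and 1 in Myom3). Of these, 13 were higher in MT and 1 was lower (86.7% higher, against 19.8% of all 36780 units). The 13 higher units were the 13 listed at 0 in MB, and a unit at 0 there can only rise. The 86.7% therefore rests on units seen in MT alone and is not read as a result about the members. The 9 Ttn units lie within a stretch of 30778 bases (mm9 chr2:76657048-76687825), 4 of them touch an annotated exon, and they were at 2.34 to 6.99 FPKM in MT. The Myom2 unit (chr8:15073394-15073594, 201 bases wholly within an annotated exon) was at 23.7 FPKM (18.8 to 28.6) in MB and 10.1 (7.06 to 13.2) in MT, a change of -1.15, while the Myom2 entry was at 0.536 and 72.4.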
